A study of Danio rerio with 33 samples.

Results

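Ovary and testis of the zebrafish were compared in the expression of their known microRNAs (miRNAs), the short regulatory RNAs that pair with messenger RNAs and lower their translation and stability. The series lists 33 samples, of which 1 heart replicate was not analysed here. The comparison used 6 of the other 32 libraries, 3 of ovary and 3 of testis, and all 238 miRNAs with a count in any library, of 247 known mature miRNAs listed. Of these, 228 had a count in ovary and 232 in testis, 3 had a count only outside the gonads, and 12 stayed at or under 3 counts in every gonad library. The ovary libraries came from female and the testis libraries from male adult fishes of the wild type Singapore strain, bought from a local supplier and given no treatment. Each replicate was a pool of several fishes, so the spread between replicates is one between pools. The series also holds embryo, eye, heart, and brain, gut and liver of either sex. These are used here to place the gonad values. For brain, gut and liver, the difference between the gonads is also set beside that between female and male organs. All of them also entered the fit behind the gonad tests, which takes its scaling and its estimate of spread from all 32 libraries.

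A gonad is made of germ cells and of somatic cells that support them, with vessels, connective tissue and blood. In the ovary much of the RNA lies in oocytes, which store maternal RNA for the embryo, surrounded by follicle cells. In the testis, cysts of dividing and differentiating germ cells are held by Sertoli cells. RNA was extracted from tissue and not from sorted cells, so fewer cells of a type and less of a miRNA per cell cannot be told apart.

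That the libraries came from gonads was checked with miR-202, a miRNA known from vertebrate gonads, which does not tell ovary from testis. Its 5p strand, the mature miRNA from the first arm of the hairpin, had 44666, 47016 and 45530.4 normalized reads in ovary, against 58025, 47984 and 48725 in testis libraries 1 to 3. Its highest mean in another group was 1018 normalized reads in embryo. The arms of miR-202 had a log2 fold change, ovary over testis, of -0.17 ± 0.29 (SE) for the 5p strand and of -0.03 ± 0.28 for the 3p strand, and neither was called (adjusted p = 1 for both). With library size alone as the scaling both values turned positive, at a median of 0.36. A normalized read is a read count multiplied by a single scaling factor of its library, and values of replicates 1 to 3 are given in that order throughout.

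The number of counts on known miRNAs differed between the gonads. It totalled 277699, 440492 and 858442 in the ovary libraries, against 1263116, 1298594 and 1171763 in the testis libraries. Ovary library 1 had the lowest total of the 32. These totals are not the sequencing depth, since the authors report that only a low share of the reads of either gonad matched known miRNAs. By their read numbers ovary library 1 was not the shallowest. A miRNA with 0 counts could therefore have been present at up to 7.19, 4.95 and 2.60 normalized reads in ovary, the worth of 3 counts, against 2.68, 2.09 and 2.26 in testis. The factors of TMM (trimmed mean of M-values) scaling also stood apart, at 1.50, 1.38 and 1.34 in ovary, against 0.885, 1.10 and 1.13 in testis. For some of the miRNAs the share of a library's counts or a ratio within the library, which do not depend on these factors, is given too.

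Most of the 10 most abundant miRNAs of ovary were also among the 10 most abundant of testis, in a different order. In ovary the 10 most abundant were miR-21, miR-92a, miR-10c, miR-202-5p, let-7a, miR-27c-3p, miR-25, miR-126a-3p, miR-26a and miR-145. In testis they were miR-92a, miR-21, let-7a, miR-10c, miR-202-5p, miR-25, miR-30c, miR-125a, let-7c and miR-26a. The 10 most abundant miRNAs of each library took 74.6 ± 0.812% of its counts in ovary and 78.9 ± 0.647% in testis (SD, n = 3 each). That is a difference of -4.29 percentage points, without overlap between the libraries, at the smallest p of 0.1 that an exact two-sided permutation test of 3 against 3 libraries can give.

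The shift was plainest in 3 miRNAs. miR-21, expressed in many tissues, took 37.0, 35.03 and 35.3% in ovary, against 15.9, 14.8 and 16.4% in testis. miR-92a, of the miR-17-92 clusters, took 10.7, 10.6 and 12.0% in ovary, against 24.2, 25.2 and 24.3% in testis. let-7a, of a family that is known for the timing of development, took 4.71, 4.43 and 4.27% in ovary, against 13.3, 13.5 and 13.2% in testis. Every ovary library had a larger share of miR-21 and smaller shares of miR-92a and let-7a than any testis library. The ratio of miR-21 to let-7a counts, which no scaling of the library can change, was 7.87, 7.91 and 8.28 in ovary, against 1.20, 1.10 and 1.24 in testis. On the normalized scale miR-21 had 246579, 254672 and 263067 normalized reads in ovary, against 179972, 133913 and 144884 in testis, a log2 fold change of 0.74 ± 0.14 that did not pass the test of more than a 2-fold difference (adjusted p = 1). miR-10c and miR-25 were abundant in both gonads and not called, at log2 fold changes of -1.28 ± 0.25 and -0.43 ± 0.14.

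Which miRNAs differed was tested by edgeR against a fold change of 2, with p-values adjusted over the 238 miRNAs and a call at an adjusted p of at most 0.05. There were 39 miRNAs higher in ovary, 16.4% of those tested, and 33 higher in testis, 13.9%. Of these, 38 of the 39 and 32 of the 33 had no overlap between ovary and testis libraries, where of all 238 miRNAs 36.6% were higher in every ovary library and 30.3% higher in every testis library. The median log2 fold change of all 238 was 0.29. The calls had median log2 fold changes of 2.29 and -2.28, and the smallest called changes were 1.30 and -1.29. The shares of 16.4% and 13.9% are the background for the called members of each list below. The spread behind these p-values was estimated over all 32 libraries. In a fit of the gonad libraries alone the calls were 28 and 39, and the adjusted p of miR-430a was 1.33e-05 instead of 5.13e-13.

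**Figure D1:**
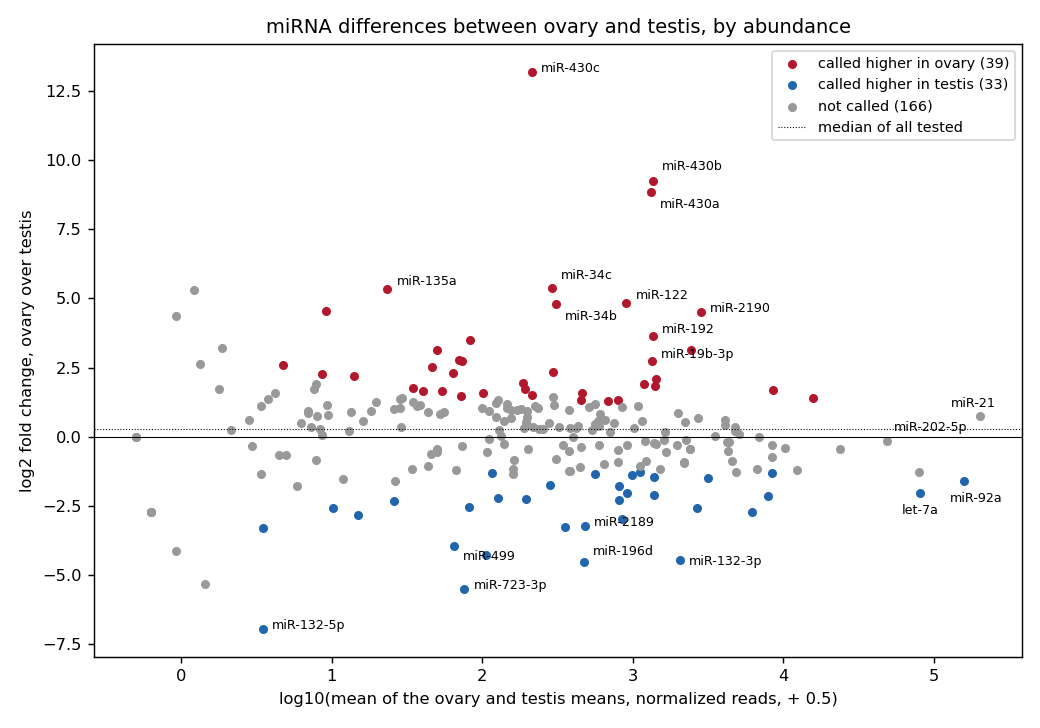
Each point is 1 of the 238 miRNAs, by the log10 of its mean level in both gonads in normalized reads (x axis) and its log2 fold change, ovary over testis (y axis), with the 39 called higher in ovary in red, the 33 called higher in testis in blue and the others in grey. The 3 miR-430 members stand above all others, and the abundant miR-92a and let-7a lie among those higher in testis; the values of miR-430c and miR-132-5p are fitted against a gonad with 0 counts.

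The split between the directions depended on the scaling. With the size factors of DESeq2 it was 35 higher in ovary and 44 higher in testis, with a median log2 fold change of 0.13 over all miRNAs. With library size alone it was 65 and 23, with a median of 0.74. No call changed its sign under either, and 35 of the 39 and 23 of the 33 were called under both. Those lost under library size alone were let-7c, let-7f, let-7h, miR-125b, miR-138, miR-16b, miR-212, miR-365, miR-735 and miR-92a. Those lost with the DESeq2 size factors were miR-130b, miR-137, miR-181a-3p and miR-23a.

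The largest difference was in miR-430, the family that in the zebrafish embryo clears maternal messenger RNAs once the zygotic genome is active. miR-430a had 1024, 2921 and 3964 normalized reads in ovary, against 6.26, 2.09 and 9.05 in testis. miR-430b had 1055, 2980.4 and 4071 normalized reads in ovary, against 5.37, 4.18 and 3.77 in testis. Ovary library 1 was the lowest of its group in both, and the lowest ovary value was still 113 times the highest testis value of miR-430a and 196.5 times that of miR-430b. The log2 fold changes were 8.85 ± 0.48 (adjusted p = 5.13e-13) and 9.25 ± 0.50 (adjusted p = 1.26e-12). miR-430c had 76.7, 470.3 and 729 normalized reads in ovary, against 0, 0 and 0 in testis, and against the worth of 3 counts in each testis library it was at least 181-fold higher in ovary. Without ovary replicate 3, the highest, this bound was 117-fold, and the log2 fold changes of miR-430a and miR-430b were 8.21 and 8.62. miR-430i, with 0, 1 and 1 counts in ovary and none in testis, was too rare for a fold change. 3 of the 4 family members were thus called, and the median log2 fold change of the 3 above the floor was 8.85 with miR-430c set at its bound. Ovary was far from the highest group, since embryo averaged 80086 normalized reads of miR-430a. Close members of the family share most of their bases, and the counts do not show how reads that match several members were divided.

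The miR-34 family holds miR-34a and the neighbours miR-34b and miR-34c. In mammals miR-34b and miR-34c are known from male germ cells and from cells with many cilia. All 3 were higher in ovary, with a median log2 fold change of 4.80, and under every scaling used. miR-34b had 683, 561 and 542 normalized reads in ovary, against 23.3, 16.7 and 24.1 in testis. miR-34c had 604, 599 and 495 normalized reads in ovary, against 17.9, 9.76 and 13.6 in testis. Neither overlapped between the gonads, with log2 fold changes of 4.80 ± 0.78 (adjusted p = 4.34e-05) and 5.38 ± 0.72 (adjusted p = 2.49e-06), while miR-34a had a smaller one of 1.66 ± 0.24 (adjusted p = 0.0042) from 80.6 ± 18.5 normalized reads in ovary and 26.0 ± 2.83 in testis (SD, n = 3 each). Ovary had the highest mean of the 11 groups for both neighbours, followed by female brain at 252 normalized reads of miR-34b and 106 of miR-34c. miR-34a was called in neither the DESeq2 test nor the fits of the gonads alone, with the replicate block or without ovary replicate 3.

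miR-135a and miR-135c were higher in ovary too, and miR-135b was not called. miR-135a was a rare miRNA with 22, 23 and 50 counts in ovary, against 2, 1 and 1 in testis, and its ratio of 42.3 has an exact 95% counting interval of 15.998 to 158.5. Counting intervals, here and below, leave out the spread between pools. miR-135c had 139, 107 and 134 normalized reads in ovary, against 15.2, 16.7 and 24.9 in testis, a log2 fold change of 2.73 ± 0.23 (adjusted p = 5.02e-08). Ovary had the highest mean of the 11 groups for miR-135a.

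**Figure D2:**
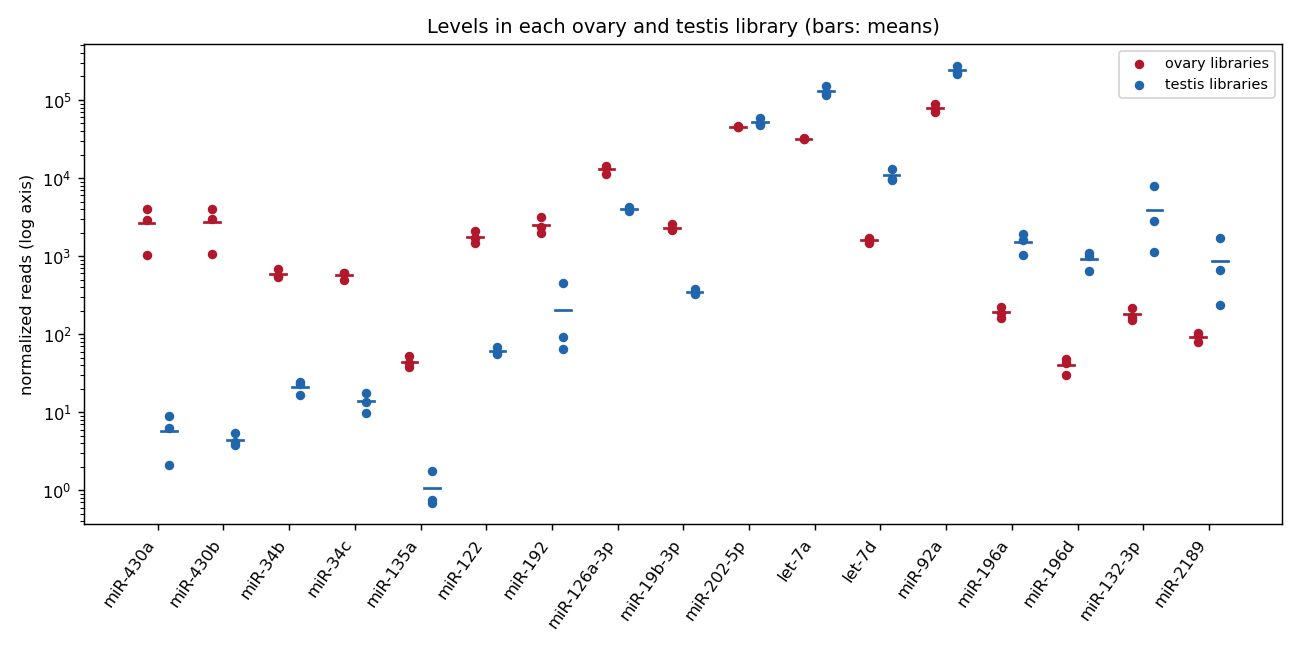
Levels in normalized reads on a log axis, with 1 point per library and a bar at the mean of 3, ovary in red to the left of testis in blue. From miR-430a to miR-19b-3p all ovary points lie above all testis points, miR-202-5p is nearly level, and from let-7a to miR-2189 all testis points lie above all ovary points; testis libraries spread widely for miR-132-3p and miR-2189.

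Several miRNAs known from other organs were among those higher in ovary. miR-122, the miRNA of hepatocytes, had 1707, 2091 and 1462 normalized reads in ovary, against 56.4, 67.6 and 59.6 in testis, a log2 fold change of 4.84 ± 0.38 (adjusted p = 4.58e-10). All 5 members of a list of intestinal miRNAs were called, against 16.4% of all miRNAs, with a median log2 fold change of 3.13. The 5 are not separate observations, since miR-192 and miR-194a are neighbours and miR-459-3p and miR-459-5p are strands of the same hairpin. In this list miR-192 had 1958, 2378 and 3189 normalized reads in ovary, against 65.3, 92.8 and 448 in testis, and its neighbour miR-194a had 3262, 3911 and 5859 normalized reads in ovary, against 154, 247 and 1092 in testis. Testis library 3 was well above the other testis libraries in both, yet below all ovary libraries, and the log2 fold changes were 3.63 ± 0.43 and 3.13 ± 0.44. Without testis replicate 3 they were 4.98 and 4.43. The other intestinal members were miR-459-3p at 3.14, miR-194b at 1.93 and miR-459-5p at 1.92, the last of which was not called in the DESeq2 test, in the fit of the gonads alone or without ovary replicate 3. The value of miR-459-3p was 2.26 without ovary replicate 3 and 4.03 without testis replicate 3.

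These miRNAs were rarer in the gonads than in their own organs. The summed level of the intestinal list was 6923 to 12101 normalized reads in ovary, against 579 to 2459 in testis, and averaged 340372 in male gut, so that the ovary mean was 2.68% of that of gut and the testis mean 0.377%. miR-122 averaged 1.66% of the female liver level in ovary and 0.0580% in testis. The part that liver or gut tissue had in these calls was not tested. Of the pancreatic list, miR-216a alone of 4 was called, with 93.5, 158 and 203 normalized reads in ovary, against 6.26, 12.6 and 21.1 in testis, and a log2 fold change of 3.51 ± 0.33 (adjusted p = 3.54e-08). Its neighbours miR-216b and miR-217 had 0.34 ± 0.18 and 0.91 ± 0.24.

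The endothelial list holds miR-126a-3p and miR-126b-3p only, and both of these 2 were called higher in ovary. Their opposite strands, miR-126a-5p and miR-126b-5p, were not called and were lower in ovary. Of the miRNAs of blood cells 1 was called, higher in testis. miR-126a-3p, known from the vessel wall, had 11302, 14187 and 13402 normalized reads in ovary, against 4290.4, 3751 and 4019 in testis, a log2 fold change of 1.69 ± 0.11 (adjusted p = 8.92e-07), and miR-126b-3p one of 1.85 ± 0.12 (adjusted p = 1.38e-07). Ovary had the highest mean of all 11 groups for both. The red blood cell miRNAs miR-451 and miR-144 were not called, at 0.22 and 0.70. Of 5 miRNAs of white blood cells only miR-150, known from lymphocytes, was called, and it was higher in testis, with 412, 569 and 554 normalized reads in ovary, against 2863, 2110.3 and 1744 in testis, and a log2 fold change of -2.12 ± 0.18 (adjusted p = 5.70e-07). The summed level of that list, miR-150 included, was 2078 to 2366 normalized reads in ovary, against 2598 to 4008 in testis. The sum does not stand for its members, since 3 of the 5 had log2 fold changes above 0 and 2 below, with a median of 0.60.

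Muscle, nerve and skin miRNAs were low in both gonads. The muscle list summed to 122.2 to 528 normalized reads in ovary, against 242 to 327 in testis, with an embryo mean of 9883, and 1 of its 5 members was called in each direction. miR-206 had 2, 11 and 31 counts in ovary, against 0, 0 and 3 in testis, a ratio of 26.1 with an exact 95% counting interval of 8.38 to 131.6. miR-499, encoded within a myosin gene in vertebrates, was higher in testis with 7.19, 6.60 and 8.67 normalized reads in ovary, against 121, 119 and 122.1 in testis (adjusted p = 3.15e-06). The nervous system list summed to 1886 to 2168 normalized reads in ovary, against 2043 to 2887 in testis, about 1.05% and 1.22% of the male brain mean, and of its 4 members miR-138 alone was called, higher in testis at -1.34 ± 0.19 (adjusted p = 0.0396). The list had no common direction, with log2 fold changes from -1.34 to 1.35, 2 above 0 and 2 below. Without testis replicate 1 or 3 miR-138 was not called (adjusted p = 0.151 and 0.0515). Of the epidermal pair, miR-203a was higher in ovary at 2.29 ± 0.37 (adjusted p = 0.000835) and miR-205 was not called (adjusted p = 0.0888).

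miR-200a, of a family that keeps epithelial cells in their state, was the only one of 6 family members called. Of all miRNAs 16.4% were called higher in ovary. miR-200a had 460.2, 493 and 531 normalized reads in ovary, against 71.6, 70.4 and 150.0 in testis. Its log2 fold change was 2.35 ± 0.35, while the family's median was 1.12. Both miR-146 members, known from the damping of innate immune signalling, were higher in ovary, miR-146a with 570.5, 611 and 889 normalized reads in ovary, against 205, 268 and 217.1 in testis, and miR-146b with 285, 342 and 327 normalized reads in ovary, against 139.6, 100.4 and 93.5 in testis. Their log2 fold changes were 1.59 ± 0.25 and 1.52 ± 0.24. These 2 calls were lost in the DESeq2 test and without ovary replicate 3. That of miR-146a was also lost in the fit of the gonads alone and with the replicate block, and that of miR-146b without ovary replicate 1, ovary replicate 2 or testis replicate 3.

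A few of the ovary calls concern miRNAs of no well known role. miR-2190 had 2984, 6269 and 6999.9 normalized reads in ovary, against 505, 151 and 70.9 in testis, a log2 fold change of 4.49 ± 0.63 (adjusted p = 5.76e-06), and both gonads spread widely. The deviating libraries were ovary 1, the lowest there, and testis 1, the highest there. Without testis replicate 1 the log2 fold change of miR-2190 was 5.61, and 4.63 without ovary replicate 1. Embryo held 115518 normalized reads of it, and ovary and testis were the eighth and the last of the 11 groups. miR-738, with 28.8, 104 and 98.0 normalized reads in ovary, against 31.3, 10.5 and 2.26 in testis, was the only miRNA called higher in ovary whose libraries overlapped, and its call was lost in 7 of the 14 alternative fits.

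Among the miRNAs higher in testis the let-7 family had the most members. let-7 accumulates as cells leave the stem cell and embryonic state. In this family 7 of 10 members were higher in testis, against 13.9% of all miRNAs, and none in ovary. The median log2 fold change of the family was -1.39. With library size alone as the scaling 4 were higher in testis and let-7i higher in ovary. let-7a had 31324, 32209.8 and 31759 normalized reads in ovary, against 150066, 122113 and 116977 in testis. let-7d had 1459.8, 1655 and 1729 normalized reads in ovary, against 13235, 9667 and 9491 in testis, and let-7g had 611, 830.1 and 858 normalized reads in ovary, against 5082, 4180.2 and 4439 in testis. None of the 3 overlapped, and their log2 fold changes were -2.03 ± 0.13 (adjusted p = 2.22e-08), -2.74 ± 0.14 (adjusted p = 3.02e-12) and -2.57 ± 0.14 (adjusted p = 1.41e-11). let-7j, let-7f, let-7c and let-7h followed at -1.80, -1.44, -1.33 and -1.29, and without testis replicate 1 let-7c and let-7h were not called (adjusted p = 0.0643 and 0.0707).

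The remaining 3 members were not called. let-7b had a log2 fold change of -0.89 ± 0.12, let-7e of 0.10 ± 0.16 and let-7i of 1.19 ± 0.12. let-7i was the reverse of the family, with 822, 705 and 824 normalized reads in ovary, against 330.1, 289 and 412 in testis, although its adjusted p of 0.0644 missed the threshold. The counts of let-7g relative to let-7i, free of any scaling, were 0.743, 1.18 and 1.04 in ovary, against 15.4, 14.4 and 10.8 in testis. Ovary had the lowest mean of all 11 groups for let-7a, let-7f, let-7g, let-7h and let-7j. Testis had the highest mean of all groups for let-7d, at 10798 normalized reads. Members of the family differ by few bases, and reads that match several of them may have been counted on each.

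miR-125, the vertebrate form of the worm's lin-4, and the miRNAs next to let-7 genes gave 2 calls among 5 members. Both were higher in testis, as were 13.9% of all miRNAs. miR-125a had 2383, 3347 and 2977 normalized reads in ovary, against 15011, 11959.7 and 11601 in testis, a log2 fold change of -2.15 ± 0.17 (adjusted p = 1.21e-07), and miR-125b one of -1.49 ± 0.12 (adjusted p = 0.000189). miR-125c, miR-100 and miR-99 were not called, at -1.16, -0.53 and -0.31. The median of the 5 was -1.16, and with library size alone as the scaling only miR-125a was called.

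miR-196 genes lie in the Hox clusters, which lay down the body axis, and their products target Hox messenger RNAs. All 4 members were higher in testis. miR-196a had 161, 226 and 188 normalized reads in ovary, against 1601, 1019.6 and 1908 in testis. miR-196d had 43.1, 47.9 and 30.4 normalized reads in ovary, against 994, 639.5 and 1090.3 in testis. Testis library 2 was the lowest of its group for both, and all ovary libraries lay below it. The log2 fold changes were -2.97 ± 0.34 (adjusted p = 1.44e-06) and -4.53 ± 0.34 (adjusted p = 4.16e-10), with -3.25 ± 0.38 for miR-196b and -4.29 ± 0.39 for miR-196c. Testis had the highest mean of the 11 groups for miR-196b, miR-196c and miR-196d, and came behind gut for miR-196a. None of the 6 miR-10 products that also lie in Hox clusters was called. With the DESeq2 size factors 5 of the 10 miR-196 and miR-10 products were called higher in testis, so a miR-10 product was called there. The most abundant of them, miR-10c, had 41852, 50859 and 47288 normalized reads in ovary, against 126703, 116974 and 95428 in testis, and the ratio of miR-196a to miR-10c counts was 0.00384, 0.00445 and 0.00398 in ovary, against 0.0126, 0.00872 and 0.0200 in testis.

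miR-132 and miR-212 are neighbours that in mammals are switched on through CREB, in nerve cells among others, and all 3 of their products were higher in testis. miR-132-3p had 153, 216 and 168 normalized reads in ovary, against 7851, 1114 and 2818 in testis. The testis libraries spread widely, yet the lowest was 5.15 times the highest ovary library, and the log2 fold change was -4.45 ± 0.44 (adjusted p = 3.54e-08). Without testis replicate 1, the highest, it was -3.45 with an adjusted p of 5.14e-08. miR-212 showed the same order of testis libraries at a low level, with 0, 1 and 7 counts in ovary, against 66, 5 and 22 in testis, and the groups overlapped (adjusted p = 0.0163). miR-212 was not called with library size alone, in the fit of the gonads alone, with the replicate block or without testis replicate 1 (for the last, adjusted p = 0.26). miR-132-5p had no count in the ovary libraries and had 10, 3 and 9 counts in testis, so that relative to the floor of 3 counts it was at least 1.21-fold higher in testis. This bound was 0.903 without testis replicate 1 and 0.979 without ovary replicate 3, so it rests on those libraries, and the call was lost with the replicate block. Brain held more of these miRNAs than testis did, with 37086 normalized reads of miR-132-3p in male brain.

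Further miRNAs were higher in testis, and some of them were scarce in ovary. miR-723-3p had 0, 6.60 and 2.60 normalized reads in ovary, against 194.1, 114 and 136 in testis, a log2 fold change of -5.50 ± 0.47 (adjusted p = 4.57e-09), which was -6.37 without ovary replicate 2. miR-2189 had 79.1, 94.1 and 104 normalized reads in ovary, against 239.7, 671 and 1703 in testis, a log2 fold change of -3.22 ± 0.54 (adjusted p = 0.000164), and its testis libraries spread widely. Without testis replicate 3, the highest, it was -2.29. Both strands of miR-2187 were called but rare, the 3p strand with 1, 0 and 0 counts in ovary, against 10, 4 and 5 in testis, a ratio of 10.7 in favour of testis with an exact 95% counting interval of 1.69 to 443. The call of the 3p strand was lost in 6 of the 14 alternative fits, among them those without ovary replicate 2 (adjusted p = 0.0553), ovary replicate 3 (0.14) or testis replicate 1 (0.0986), and that of the 5p strand with the replicate block. miR-735, with 4.79, 31.4 and 28.6 normalized reads in ovary, against 208, 89.3 and 122.1 in testis, lost its call in 5 of the 14 alternative fits. miR-153a and miR-7a, known from nerve and endocrine cells, were higher in testis at -2.31 ± 0.30 and -2.24 ± 0.24, from ovary means of 8.56 and 69.5 normalized reads and testis means of 41.9 and 321. In contrast miR-137, which the authors list as brain associated, was higher in ovary at 1.46 ± 0.28 (adjusted p = 0.0481). Its call was lost in 8 of the 14 alternative fits.

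The miR-17-92 clusters encode several miRNAs in a row that are cut from shared transcripts, and they held calls in both directions. Of the 20 members of the list 5 were higher in ovary and 2 in testis, against 16.4% and 13.9% of all miRNAs, with a median of 1.04. The 2 higher in testis were miR-92a and miR-92b, and miR-92b comes from a gene outside these clusters. With library size alone 10 were higher in ovary and 1 in testis, and miR-92a was not called. miR-19b-3p had 2227, 2598 and 2149 normalized reads in ovary, against 332, 383 and 340.0 in testis, a log2 fold change of 2.72 ± 0.25 (adjusted p = 1.11e-07). miR-92a, encoded in the same group of genes, had 71182, 76863 and 89691 normalized reads in ovary, against 273903, 228020.0 and 214597 in testis, a log2 fold change of -1.59 ± 0.15 (adjusted p = 0.000182). The ratio of miR-19b-3p to miR-92a counts was 0.0313, 0.0338 and 0.0240 in ovary, against 0.00121, 0.00168 and 0.00158 in testis. The pair was chosen after its values were seen, for its opposite calls, so this ratio is a description only.

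The other members of that group of genes lay between the extremes. miR-18a had 23.97, 24.8 and 18.2 normalized reads in ovary, against 6.26, 4.88 and 3.02 in testis, a log2 fold change of 2.21 ± 0.28 (adjusted p = 0.000914), and both strands of miR-19a were called at 1.74 ± 0.21 and 1.66 ± 0.19. miR-17a-5p and miR-20a-5p were not, at 0.37 ± 0.11 and 0.26 ± 0.12. miR-92a has a second gene, next to those of miR-18b and miR-17a, and the reads do not tell its genes apart. miR-18b-3p from there was rare but called, with 2, 4 and 12 counts in ovary, against 0, 0 and 5 in testis, and a ratio of 6.42 with an exact 95% counting interval of 2.30 to 22.1. Its call was lost in 6 of the 14 alternative fits, among them those without ovary replicate 3 (adjusted p = 0.249), testis replicate 1 (0.0822) or testis replicate 2 (0.126). The calls of miR-18a and miR-19a-5p were lost in the DESeq2 test, and that of miR-19a-5p also in the fit of the gonads alone and with the replicate block. miR-92b, of a gene elsewhere, was higher in testis like miR-92a, with 304, 259 and 269.7 normalized reads in ovary, against 1570.0, 1255 and 1206 in testis, and a log2 fold change of -2.28 ± 0.16, whereas miR-25, close to miR-92a in sequence, was not called.

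Whether neighbouring miRNAs moved together was described over the RefSeq annotation of the zebrafish assembly GRCz12tu, in which 236 of the 247 mature miRNAs were matched by name to a gene. There were 49 groups of neighbours with at least 2 kinds of hairpin, in which each gene started within 10 kb of the one before. Members were called higher in ovary only in 17 groups and higher in testis only in 15, while 15 held no call. Calls in both directions occurred in 2 groups, and both of these hold a gene of miR-92a, whose call was lost with library size alone. In the second of them the ovary side was miR-18b-3p, a call lost in several alternative fits as given above. Neighbours also differed in the size of their change, such as miR-216a beside miR-216b and miR-217, and miR-96 (-2.21 ± 0.27, adjusted p = 6.77e-05) beside miR-182-5p (-1.17 ± 0.26, adjusted p = 0.231). Some mature miRNAs have several genes and were counted in several groups, among them let-7a with 6 genes and miR-181a with 5. Several of the groups with ovary calls held only that of miR-181a-3p, miR-23a or miR-130b, each lost with the DESeq2 size factors. In many groups a single miRNA was called, so the counts of groups do not show that neighbours moved together. In the group of miR-23a, miR-27c and miR-24, the first 2 were higher in ovary at 1.33 ± 0.18 and 1.41 ± 0.14, and miR-24 was not called at 0.68 ± 0.18. The call of miR-23a was lost in 10 of the 14 alternative fits, among them the DESeq2 size factors and every fit without a single library but that without testis replicate 2, over which its adjusted p ranged from 0.0248 to 0.219. miR-27c-3p was abundant, with 21839, 24333 and 22745 normalized reads in ovary, against 9347, 8925 and 7687 in testis, and ovary had the highest mean of all 11 groups. Its call was lost when any single ovary library was left out (adjusted p = 0.0516, 0.0553 and 0.0702 without replicates 1 to 3).

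**Figure D3:**
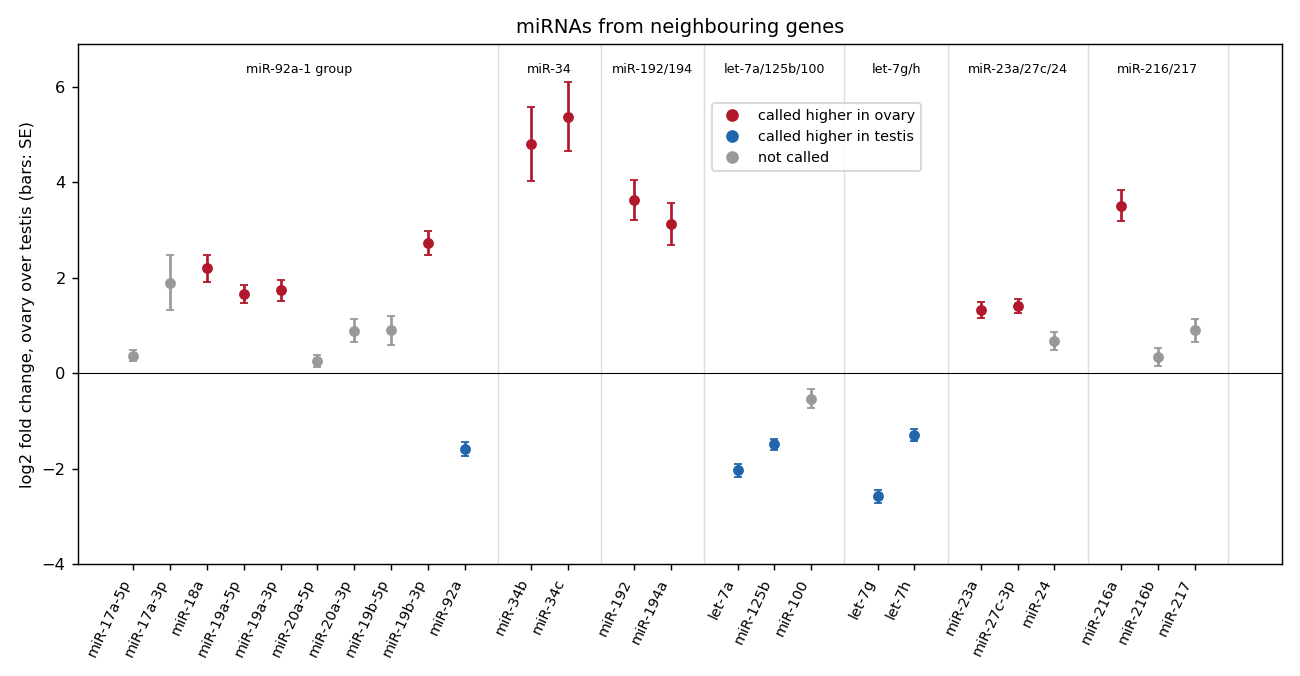
Log2 fold change, ovary over testis (y axis), of miRNAs of 7 groups of neighbouring genes (x axis), with the standard error as bars and colour for the call. In the first group, miR-19b-3p at 2.72 and miR-92a at -1.59 lie on opposite sides of 0, while miR-34b, miR-34c, miR-192 and miR-194a lie above it and those of the let-7 groups below it.

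The strands of a hairpin were compared within each library, since their ratio does not depend on scaling. Of 34 hairpins with both strands listed, 13 had at least 10 counts of either strand in all 6 libraries. The ratio of 5p to 3p counts did not overlap between the gonads in 9 of the 13, each at an exact permutation p of 0.1, the smallest possible (0.144 after Benjamini-Hochberg adjustment over the 13). In 5 the log2 ratio differed by more than 1, in miR-199 only just at -1.003, and the median absolute difference was 0.66. The 13, the 9 and the 5 each count both miR-126a and miR-126b, whose 5p counts were nearly the same, so they overstate the number of separate observations.

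The hairpin of miR-727 gave the largest of these differences and changed its main strand. Its log2 ratio of 5p to 3p was 0.58, 0.80 and 1.29 in ovary, against -1.91, -1.69 and -2.54 in testis, a difference of 2.94, so the 5p strand prevailed in every ovary library and the 3p strand in every testis library. The counts behind it were modest, with 42, 73 and 164 counts in ovary, against 21, 18 and 30 in testis for the 5p strand, and with 28, 42 and 67 counts in ovary, against 79, 58 and 174 in testis for the 3p strand. miR-2188 had log2 ratios of 4.79, 4.91 and 4.46 in ovary, against 1.55, 2.36 and 2.49 in testis. Its 5p strand, higher in ovary at 2.08 ± 0.22 (adjusted p = 1.42e-05), prevailed in both gonads, and its 3p strand was not called (-0.57 ± 0.27).

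miR-126a had the opposite shift. Its log2 ratio was -2.49, -2.69 and -2.86 in ovary, against -0.21, -0.75 and -0.76 in testis, a difference of -2.11. While its 3p strand was higher in ovary, its 5p strand, with 2006, 2205 and 1840.4 normalized reads in ovary, against 3713, 2232 and 2374 in testis, was not called (-0.46 ± 0.15). The counts of miR-126a-5p and miR-126b-5p differed by at most 3 in any gonad library, so the ratio of miR-126b is not a separate observation. miR-199 and miR-210 had smaller differences of -1.003 and -0.96 without overlap. miR-202, miR-19a, miR-140 and miR-181a overlapped between the gonads, with differences of -0.18, -0.05, 0.24 and -0.42.

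**Figure D4:**
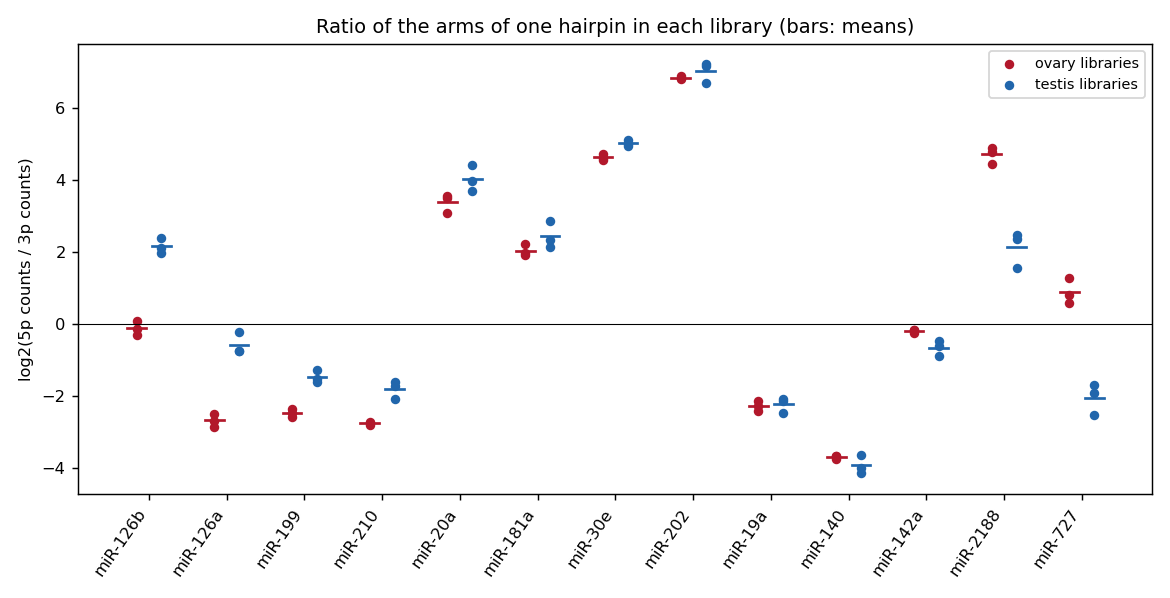
Log2 ratio of 5p to 3p counts (y axis) of 13 hairpins (x axis, ordered by the difference), with 1 point per library and a bar at the mean, ovary in red to the left of testis in blue. miR-126b, miR-126a, miR-199 and miR-210 have lower ratios in ovary, miR-2188 and miR-727 higher ones, and miR-727 crosses 0; the 5p reads of miR-126a and miR-126b are nearly the same counts.

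The place of the gonads among all 11 groups was described from the group means. Ovary was the highest group for 12 of the 39 miRNAs called higher in ovary. Beside the pair miR-34b and miR-34c and the miR-126 3p strands, these were miR-135a, miR-18b-3p, miR-19a-3p, miR-19b-3p, miR-27c-3p, miR-130b, miR-218a and miR-2188-5p. Of these, miR-18b-3p was rare, at a mean of 7.27 normalized reads in ovary and 4.66 ± 2.20 in female liver (SD, n = 3). Its ovary mean was near the 7.19 that 3 counts are worth in ovary library 1. For 15 of the 39, another group had over 10 times the ovary mean, among them the miR-430 members in embryo, miR-122 in female liver and the intestinal miRNAs in male gut. For 5 of the 33 called higher in testis, another group had over 10 times the testis mean. Testis was the highest group for 9 of its 33, namely let-7d, miR-92a, miR-196b, miR-196c, miR-196d, miR-365, miR-460-3p, miR-2187-5p and miR-2189. The rank of miR-92a lay within the spread, at 238840 ± 31098 normalized reads in testis and 216831 ± 56573 in female liver (SD, n = 3 each). miR-2189 spread widely in testis, at 871 ± 752. For 9 of the 33 ovary was the lowest of the groups, and for 10 of the 39 testis was. These miRNAs were picked for a large difference between the gonads, so high and low ranks among them were in part built in. No share over all miRNAs is set beside these counts.

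Brain, gut and liver were sequenced from both sexes, so the difference between the gonads could be set against that between females and males in an organ both have. The gonad comparison shares no libraries with that of any organ. The same gonad libraries enter the differences for liver, gut and brain, so these are not independent of each other. The difference of the log2 fold changes, ovary over testis minus female over male, passed an adjusted p of 0.05 in 138 miRNAs for liver (58.0% of 238), 148 for gut (62.2%) and 133 for brain (55.9%). Among the 72 gonad calls it passed in 52 for liver, 65 for gut and 65 for brain. These calls were picked for a large difference between the gonads, which is part of the tested quantity. A high share among them was therefore in part built in. Against a 2-fold difference, 36 miRNAs were called between female and male liver (15.1%), 7 in gut (2.94%) and 9 in brain (3.78%).

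Of the 18 miRNAs called both in the gonads and in liver, 10 had the same direction and 8 the opposite one. In gut 4 of 5 had the same direction, namely miR-430a, miR-430b, miR-34c and miR-122, and in brain 2 of 5. let-7a, lower in ovary than in testis, had 445422 ± 90580.5 normalized reads in female liver and 124829 ± 10889 in male liver (SD, n = 3 each), a log2 fold change of 1.84 ± 0.13 (adjusted p = 1.44e-06). The contrasts differed by -3.87 ± 0.19 (adjusted p = 7.23e-16). let-7f, let-7g and let-7h were likewise higher in female liver and lower in ovary, as was miR-16b with 3598 ± 947 normalized reads in female liver and 419.8 ± 62.7 in male liver. In gut and brain the let-7 members were not called between the sexes, yet the contrasts differed there too, for let-7a by -3.09 ± 0.18 in gut (adjusted p = 1.64e-13) and -2.66 ± 0.18 in brain (adjusted p = 3.34e-12).

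miR-2190 was higher in ovary than testis and lower in female than male liver, gut and brain. It had 1051 ± 586 normalized reads in female liver and 8231 ± 2721 in male liver, 760.2 ± 275 normalized reads in female gut and 12749 ± 5455 in male gut, and 5898 ± 315 normalized reads in female brain and 58909.9 ± 27848 in male brain. The contrasts differed by 7.46 ± 0.86, 8.56 ± 0.88 and 7.81 ± 0.86 in the same order of organs (adjusted p = 3.60e-08, 6.56e-09 and 2.35e-08). miR-738 and miR-203a were also opposite to liver, and miR-738 and miR-96 to brain.

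The miR-196 members went the same way in liver as in the gonads. miR-196a had 135.4 ± 63.9 normalized reads in female liver and 987 ± 583 in male liver, a log2 fold change of -2.84 ± 0.33 (adjusted p = 9.96e-06), and the contrasts differed by -0.13 ± 0.45 (adjusted p = 0.835). miR-196d was lower in female liver as well but by less than in ovary, with a difference of -1.67 ± 0.48 (adjusted p = 0.00437). In gut miR-196d was not called between the sexes, and the contrasts differed by -4.29 ± 0.43 (adjusted p = 5.81e-09).

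miR-430 was also counted in other female organs. miR-430a had 35.8 ± 5.48 normalized reads in female liver and 0.657 ± 0.298 in male liver, and 16.8 ± 2.62 normalized reads in female gut and 0.199 ± 0.345 in male gut. Both organs were called higher in females (adjusted p = 8.65e-06 for liver and 0.000242 for gut). The female levels were 1.36% and 0.639% of the ovary mean. The gonadal miR-202-5p averaged 473 normalized reads in female and 812 in male liver, and 433 in female and 327 in male gut. The part that ovary tissue had in the miR-430 counts of these organs was not tested.

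**Figure D5:**
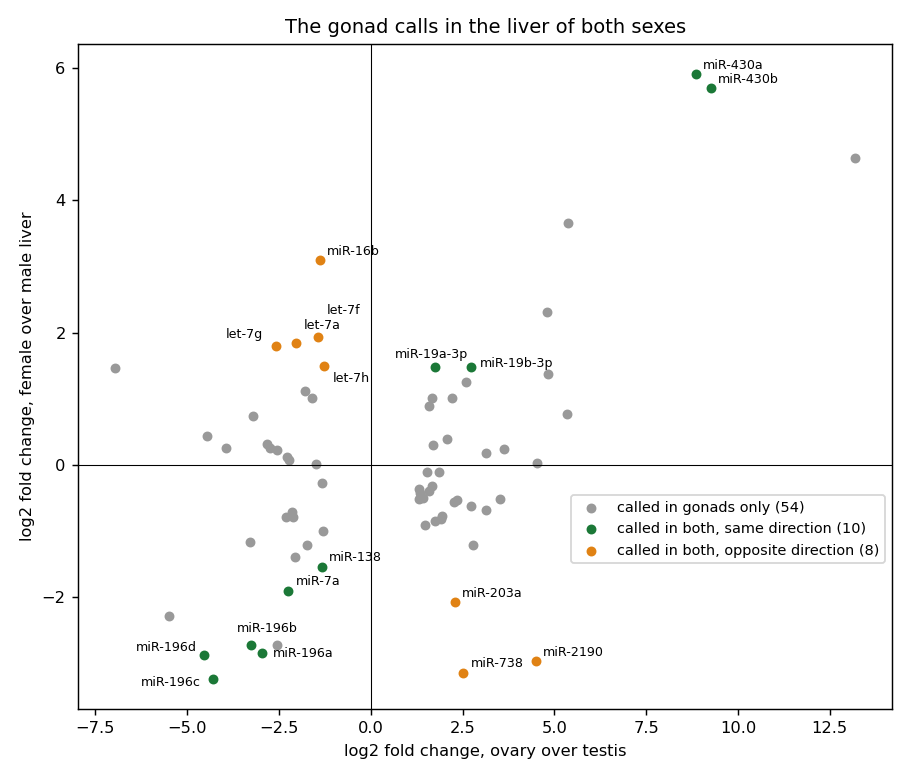
Each point is 1 of the 72 miRNAs called between the gonads, by its log2 fold change, ovary over testis (x axis), and that of female over male liver (y axis). Of the 18 called in both, 10 share the direction, among them miR-430a, miR-430b and the 4 miR-196 members, and 8 are opposite, among them 4 let-7 members, miR-16b and miR-2190.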

How the data were processed

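Small RNA of 11 sample groups was sequenced by the authors after adaptor ligation and size selection. Per the labels CASAVA 1.8.2, cutadapt and edgeR were used. With miRDeep2 the authors assigned reads to the 247 mature miRNAs used here, from miRBase Release 19, and deposited the counts. They also deposited a normalized signal, each count multiplied by a single scaling factor of its library, and the means and SDs here are of that signal. This scaling factor is not the TMM factor itself. It is inverse to the product of the library's total counts and its TMM factor. In ovary library 1 the scaling factor was 2.397 and the TMM factor 1.502.

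The counts of 32 libraries were fitted with edgeR 4.0.16 in R 4.3.3 (TMM, quasi-likelihood, 1 coefficient per group), without a filter. For ovary over testis glmTreat was run with a log2 threshold of 1, and differences between contrasts with the quasi-likelihood F-test, each adjusted by Benjamini-Hochberg over 238 miRNAs. Standard errors came from the F statistic of no change. Exact permutation tests and intervals used Python 3.11.15 with scipy 1.17.1, numpy 2.4.6 and pandas 2.3.3. Intervals, from counts pooled over the libraries of each gonad, and floors (3 counts) cover counting error only. They leave out the spread between pools, and reads carried no molecular identifiers. The fits were run on simulated data in which all groups shared a single profile, apart from miRNAs changed in ovary, and a single relative spread. Such data could not test uneven spread between libraries or a shift in composition like that between the gonads.

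Named miRNAs were the 15 called with the largest change and no overlap in each direction, the 10 most abundant of each gonad, the members of fixed lists, and the 5 smallest adjusted p of each difference between contrasts. Others, and the ratios within a library, were chosen after their values were seen. The members and lists were chosen with earlier results of these data known. Alternatives were the DESeq2 1.42.0 size factors and test, the likelihood ratio test, library size alone, leaving out low counts, a threshold set after the test, the gonads alone, a replicate block, an adjusted p of 0.01, and leaving out each library. Gonad pools with the same number are of different fishes. Sequencing batches are not given in the sources used here. Predicted miRNAs were not analysed here.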

Additional observations from a re-analysis of the deposited data

Results flagged for a closer look

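The difference between ovary and testis was not the same as that between females and males of other organs. By the quasi-likelihood F-test of edgeR on the difference of the contrasts, at an adjusted p of at most 0.05, 138 miRNAs differed from liver, 148 from gut and 133 from brain. Of the miRNAs called in both contrasts, 10 of 18 for liver, 4 of 5 for gut and 2 of 5 for brain had the same direction. In 12 cases a miRNA was called in both contrasts with opposite directions. For liver these were let-7a with a difference of -3.87 ± 0.19 (log2, SE), let-7f with -3.38 ± 0.19, let-7g with -4.37 ± 0.19, let-7h with -2.79 ± 0.17, miR-16b with -4.48 ± 0.22, miR-203a with 4.37 ± 0.52, miR-2190 with 7.46 ± 0.86 and miR-738 with 5.65 ± 0.84. For gut it was miR-2190 with 8.56 ± 0.88. For brain these were miR-2190 with 7.81 ± 0.86, miR-738 with 4.95 ± 0.81 and miR-96 with -3.93 ± 0.35. Each difference is ovary over testis minus female over male, and no cause of any of them was tested. Groups of 3 libraries were too small for a test of single outlying libraries.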

How the results depend on the processing

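All 72 miRNAs called between ovary and testis kept their sign in each of the 14 alternative fits, and 23 of the 39 and 20 of the 33 were called in all of them. The counts of calls moved by more than 1.5 times with library size alone (65 higher in ovary), with a threshold applied after the test (65 higher in ovary and 50 in testis) and with the DESeq2 test (24 higher in ovary). The replicate block gave 27 higher in ovary and 37 in testis, of which 27 and 29 were calls of the main fit. Same-numbered ovary and testis libraries did not deviate together, with correlations of -0.01, -0.11 and 0.07, and not every library correlated best with its own number. Without one library in turn the counts ranged over 26 to 41 higher in ovary and 26 to 44 in testis. The extremes were 26 and 44 without ovary replicate 3, 36 and 26 without testis replicate 1, and 41 higher in ovary without testis replicate 3. In all of these leave-one-out fits 25 of the 39 and 26 of the 33 were called. Calls lost without ovary replicate 1 were miR-130b, miR-137, miR-146b, miR-181a-3p, miR-23a, miR-27c-3p and miR-735, without replicate 2 miR-130b, miR-137, miR-146b, miR-181a-3p, miR-23a, miR-27c-3p, miR-738, miR-2187-3p and miR-365, and without replicate 3 miR-130b, miR-137, miR-146a, miR-146b, miR-181a-3p, miR-184, miR-18b-3p, miR-218a, miR-23a, miR-27c-3p, miR-34a, miR-459-5p, miR-738, miR-2187-3p and miR-735. Calls lost without testis replicate 1 were miR-181a-3p, miR-18b-3p, miR-23a, let-7c, let-7h, miR-138, miR-212, miR-2187-3p, miR-365 and miR-735, without replicate 2 miR-130b, miR-137, miR-184, miR-18b-3p, miR-2185-5p and miR-738, and without replicate 3 miR-130b, miR-146b, miR-23a, miR-738, miR-138 and miR-365. The gonads fitted alone gave 28 and 39, and an adjusted p of 0.01 gave 31 and 27. The number of miRNAs that differed from the contrast of the sexes stayed within 1.5 times for liver, gut and brain with the other scalings, the filter on low counts, the replicate block, an adjusted p of 0.01 and each library left out; the other alternatives were run for ovary over testis alone.

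The share of the 10 most abundant miRNAs, a difference of -4.29 points, was -6.22 with 5 miRNAs, -3.10 with the same miRNAs in all libraries, and from -4.75 to -3.92 with one library left out. With library size alone 24 of the 238 miRNAs turned positive and 3 negative, none of them called, and with the DESeq2 size factors 8 turned negative. Among the 10 most abundant miRNAs of either gonad those that turned with library size alone were miR-202-5p at 0.27, miR-25 at 0.025, miR-26a at 0.059 and miR-145 at 0.13. Ovary library 1, with 277699 counts, limits what can be said of rare miRNAs, and a scaling that rests on most miRNAs being alike limits the split between directions.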

Other observations

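Families that gave few calls between the gonads are described by their counts. None of 6 miR-30 products was called. All 6 had log2 fold changes below 0, with a median of -0.90, though miR-30b was level at -0.002. With the DESeq2 size factors 2 were called higher in testis. With library size alone none was called, 5 were below 0 and 1 above, and the median was -0.46. miR-30c, the seventh most abundant miRNA of testis, had 6699.7, 8192 and 7583 normalized reads in ovary, against 21804, 13832 and 16211 in testis (adjusted p = 0.0986). Of 9 members of miR-15 and miR-16, miR-16b alone was called, with 501, 586 and 556 normalized reads in ovary, against 1477, 1236 and 1583 in testis and a log2 fold change of -1.38 ± 0.15 (adjusted p = 0.00699), while the median was 0.58 and miR-457a, the most abundant of them in ovary, was at 1.10 ± 0.14.

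Of 4 miR-181 products miR-181a-3p was called higher in ovary at 1.31 ± 0.15, of 8 members of miR-130 and miR-301 miR-130b at 1.30 ± 0.17, and of 9 members of miR-23, miR-24 and miR-27 miR-23a and miR-27c-3p. The medians of these lists were 0.78, 0.79 and 0.46, and the calls of miR-181a-3p, miR-130b and miR-23a were lost with the DESeq2 size factors. miR-462 and miR-731, neighbours found in fishes, were not called at -1.07 ± 0.18 and -0.99 ± 0.22. Of the 4 products of the miR-183 cluster, known from sensory cells, miR-96 alone was called, with 47.9, 41.3 and 46.0 normalized reads in ovary, against 276, 201 and 151 in testis, far under its eye mean of 16299.6.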
